A study of Mus musculus with 6 samples.

Results

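The 10 genes described here (Dcstamp, Ocstamp, Acp5, Ctsk, Nfatc1, Oscar, Clcn7, Ostm1, Car2 and Tm4sf19) encode proteins by which osteoclasts fuse and resorb bone. They were chosen by symbol from the 45193 Ensembl genes of the count table, and each of the 10 symbols matched 1 gene. Messenger RNA was sequenced from macrophages that had been grown from the marrow of C57BL/6J mice of 2 genotypes, with 3 libraries each. The RXR knockout (RXRKO) cells carried the genotype RXRafl/flLysMCre RXRb-/-: loxP-flanked Rxra alleles, a Cre recombinase driven by the lysozyme M locus, which is active in myeloid cells, and inactivated Rxrb alleles. The other cells are labelled wild type (WT), with no Cre named, so effects of Cre, of the Lyz2 locus and of RXR loss cannot be told apart. Marrow precursors of both genotypes were grown for 6 days with L929-conditioned medium, a source of CSF-1, and then received serum-free medium with the solvent DMSO for 3 h. No RANK ligand is named in the culture protocol, so these were macrophages and not osteoclast cultures. The replicates are called biological, but nothing says from which animals they came, and p-values measure only the spread between these libraries.

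Osteoclasts are bone-resorbing giant cells that form when precursors of the macrophage lineage meet CSF-1 and RANK ligand and fuse with each other. The receptor RANK, together with partner receptors that signal through ITAM adaptor chains, raises the transcription factor NFATc1, which switches on genes of fusion and of resorption. The mature cell seals off a patch of bone, acidifies it with a proton pump and a chloride transporter, and digests the exposed matrix with cathepsin K. Retinoid X receptors (RXRs) are nuclear receptors that act as partners of many others, and in mice they have been linked to osteoclast formation in the hematopoietic lineage.

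Total counts ranged from 17250051 to 25091019 in the RXRKO libraries and from 7880320 to 14957253 in the WT libraries, so every RXRKO library was deeper than every WT library. The same 4 members passed the test when counts were thinned to the smallest library. Rxrb averaged 9.27 ± 2.09 CPM (counts relative to the library total, scaled with TMM factors) in RXRKO and 66.7 ± 1.86 CPM in WT (SD, n = 3 each). Lyz2, whose locus carries Cre, averaged 28.4 ± 6.12 CPM in RXRKO and 15300 ± 594 CPM in WT. Rxra averaged 109 ± 4.83 CPM in RXRKO and 104 ± 6.7 CPM in WT, a count that includes exons outside any deleted stretch and so does not check the deletion. All 8 macrophage markers had reads, with a summed level of 7150 to 8380 CPM in RXRKO and 6230 to 7220 CPM in WT. Calcr, the calcitonin receptor of mature osteoclasts, had 0 reads in all 6 libraries.

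The 10 genes did not share a direction. Dcstamp and Acp5 rose in RXRKO macrophages, Ctsk and Clcn7 fell, and Ocstamp, Nfatc1, Ostm1 and Tm4sf19 were tested and did not pass. Oscar and Car2 had too few reads for the test. Of the 8 members tested, 2 rose and 2 fell at an adjusted p under 0.05 (edgeR quasi-likelihood F test, Benjamini-Hochberg adjustment over 12011 genes). Of all tested genes 19.4% passed in either direction, 9.77% higher and 9.61% lower in RXRKO. The median log2 fold change of the 8 members was 0.02, and that of all tested genes was -0.005. In 5 of the 8 tested members the 3 RXRKO values lay apart from the 3 WT values, against 36.9% of all tested genes. They were higher in RXRKO for 2 members, against 19% of tested genes, and lower for 3, against 17.9%. In bulk RNA, fewer cells that express a gene and less of its RNA per cell cannot be told apart.

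**Figure D1:**
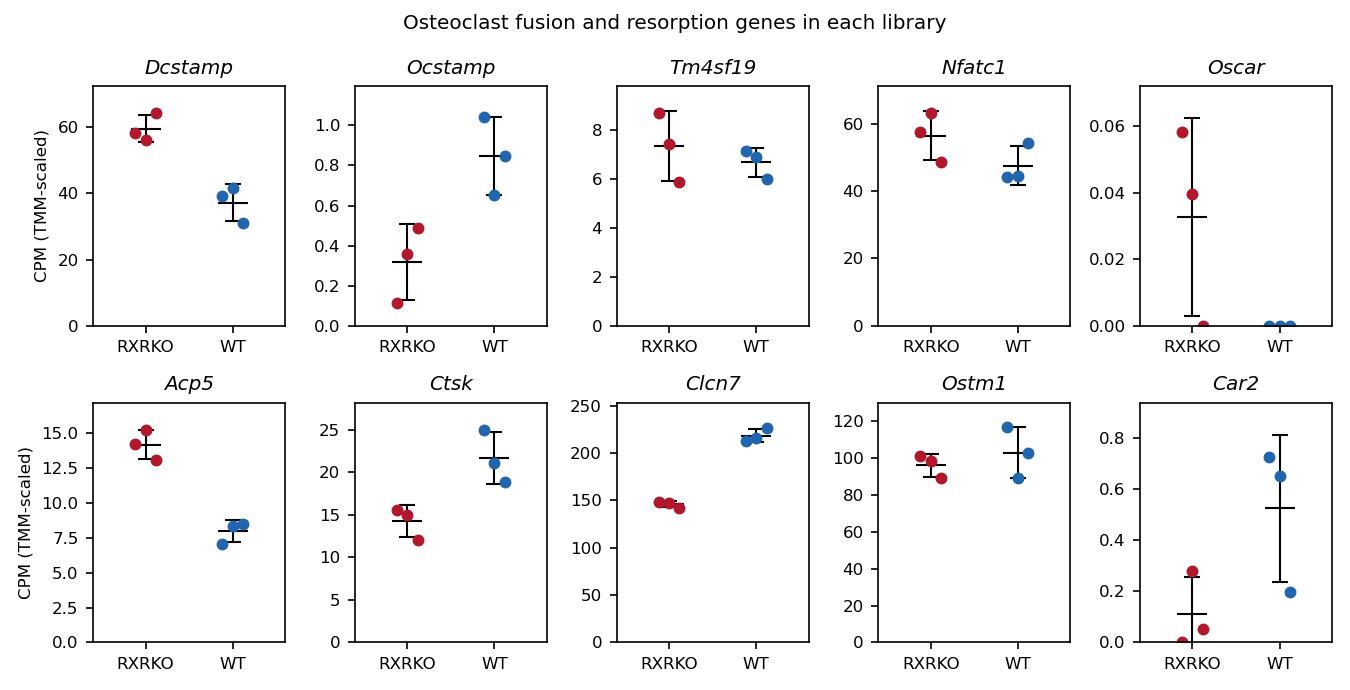
Levels of the 10 members in TMM-scaled CPM (y axis, from 0, with its own scale per gene) in the 3 RXRKO and 3 WT libraries (points), with the mean and SD as bars. RXRKO points lie above WT points for Dcstamp and Acp5 and below them for Ocstamp, Ctsk and Clcn7, while the groups overlap for the other members.

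Fusion genes were described first. Dcstamp (ENSMUSG00000022303, chromosome 15, 39745930 to 39760938 in GRCm38) encodes DC-STAMP, a multipass membrane protein without which mouse osteoclasts stay mononuclear. It stood at 58.3, 56.2 and 64.2 CPM in RXRKO replicates 1, 2 and 3, against 39.3, 41.5 and 31 CPM in WT replicates 1, 2 and 3. Every RXRKO library lay above every WT library, and WT replicate 3 was the lowest. Dcstamp rose 1.61-fold, or 0.69 on the log2 scale (SE 0.114, edgeR adjusted p = 0.00111). The rise passed the test in all 16 alternative fits, with log2 fold changes from 0.56 to 0.79.

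Ocstamp (ENSMUSG00000027670, chromosome 2, 165393760 to 165400405) encodes the related fusion protein OC-STAMP, and it was close to the limit of detection. It had 2, 9 and 9 reads in RXRKO replicates 1, 2 and 3, against 10, 5 and 13 reads in WT replicates 1, 2 and 3. Scaled to library size this gave 0.116, 0.357 and 0.489 CPM in RXRKO and 1.04, 0.652 and 0.849 CPM in WT. The groups did not overlap, yet the difference missed the threshold (log2 fold change -1.37, SE 0.52, 95% interval -2.49 to -0.24, unadjusted p = 0.0213, edgeR adjusted p = 0.0861). Both groups rest on few reads, 20 in the RXRKO libraries and 28 in the WT libraries.

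The pair was also compared within each library, where scaling between libraries plays no part. Counts were divided by the length of the gene's merged exons. Ocstamp per kb amounted to 0.00145, 0.00463 and 0.00555 of Dcstamp per kb in RXRKO replicates 1, 2 and 3. In WT replicates 1, 2 and 3 the ratio was 0.0192, 0.0115 and 0.0199. On the log2 scale the ratio averaged -8.23 ± 1.05 in RXRKO and -5.93 ± 0.447 in WT (SD, n = 3 each), a difference of -2.29 with no overlap. The two-sided exact permutation p was 0.1, the smallest that 3 against 3 libraries allow. With Ocstamp lower and Dcstamp higher in every RXRKO library, the ratio could only be lower there. Its separation and its p therefore followed from the levels already given and are no further evidence. Without RXRKO replicate 1, where the ratio rests on 2 Ocstamp reads, the difference was -1.69.

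Tm4sf19 (ENSMUSG00000079625, chromosome 16, 32400506 to 32408227) encodes a membrane protein of the L6 family found in maturing osteoclasts. It stood at 8.72, 7.46 and 5.87 CPM in RXRKO libraries and 7.16, 6.91 and 6.01 CPM in WT libraries, and the groups overlapped. The log2 fold change was 0.15 (95% interval -0.25 to 0.54, edgeR adjusted p = 0.623). The width of that interval leaves room for changes of either sign.

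The regulators followed. Nfatc1 (ENSMUSG00000033016) encodes the transcription factor that drives osteoclast differentiation. It stood at 57.4, 63 and 48.7 CPM in RXRKO replicates 1, 2 and 3 and at 44.2, 44.3 and 54.1 CPM in WT replicates 1, 2 and 3. RXRKO replicate 3 lay below WT replicate 3, so the groups overlapped. Its log2 change was 0.24 (SE 0.116, 95% interval -0.01 to 0.49, edgeR adjusted p = 0.173), and over the alternatives the adjusted p ranged from 0.0523 to 0.504. Oscar (ENSMUSG00000054594, chromosome 7, 3609813 to 3616157) encodes a collagen-binding receptor that signals through the FcR gamma chain and is itself an NFATc1 target. It had 1, 1 and 0 reads in RXRKO replicates 1, 2 and 3 and 0 reads in each WT library. A count of 0 allows up to 0.092 CPM over the WT libraries together, counting error only, so a difference was not detectable at this depth.

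The matrix-degrading and phosphatase genes went opposite ways. Acp5 (ENSMUSG00000001348, chromosome 9, 22126727 to 22135711) encodes tartrate-resistant acid phosphatase (TRAP), the classical stain of osteoclasts. It stood at 14.2, 15.2 and 13.1 CPM in RXRKO libraries, against 7.06, 8.35 and 8.49 CPM in WT libraries. All RXRKO values were higher than all WT values, and Acp5 rose 1.78-fold, or 0.83 on the log2 scale (SE 0.138, edgeR adjusted p = 0.00114). Its exons share 137 bases with a noncoding gene on the other strand, and whether the counting used strand is not given in the sources used here.

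Ctsk (ENSMUSG00000028111, chromosome 3, 95499256 to 95509362) encodes cathepsin K, the collagen-cleaving protease of osteoclasts. It stood at 15.6, 15 and 12.1 CPM in RXRKO libraries, against 25, 21.1 and 18.9 CPM in WT libraries. The lowest WT value lay above the highest RXRKO value, and Ctsk fell to 0.66 of the WT level, -0.60 on the log2 scale (SE 0.141, edgeR adjusted p = 0.00991). The call was lost without WT replicate 1, the highest library (-0.49, adjusted p = 0.0677), while the adjusted p over the other alternatives stayed under the threshold. Cathepsin K was a minor cathepsin in these cells. Per kb of exon, Ctsk averaged 9.42 ± 1.26 CPM in RXRKO and 14.3 ± 2.03 CPM in WT, while Ctsb, the lysosomal cathepsin B gene, averaged 3600 ± 109 CPM in RXRKO and 2690 ± 64.1 CPM in WT. Ctsb rose by 0.42 on the log2 scale (SE 0.0743, edgeR adjusted p = 0.00166), the other direction from Ctsk.

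Among the genes of acid secretion, Clcn7 fell. Clcn7 (ENSMUSG00000036636, chromosome 17, 25133391 to 25162104) encodes ClC-7, the chloride-proton exchanger of lysosomes and of the ruffled border. It stood at 148, 147 and 142 CPM in RXRKO libraries, against 213, 216 and 226 CPM in WT libraries. The groups lay far apart relative to their spread, and Clcn7 fell to 0.67 of the WT level, -0.59 on the log2 scale (SE 0.0747, edgeR adjusted p = 0.000156). The fall passed the test in all 16 alternatives, with log2 fold changes from -0.69 to -0.56. Clcn7 lies 8.87 Mb from Rxrb, the inactivated locus. A set of 295 tested genes within 10 Mb of Rxrb, Clcn7 among them, was chosen after the values of Clcn7 were seen. Of these 295, 25 rose and 48 fell, 24.7% in all, against 19.4% of all tested genes. Those that fell made up 16.3%, against 9.61% of all tested genes, while 9.77% of all tested genes rose. The median log2 fold change of the 295 was -0.06. Whether a segment around the targeted locus plays a part in the Clcn7 difference was not tested.

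Ostm1 (ENSMUSG00000038280, chromosome 10, 42583822 to 42702459) encodes the partner subunit that ClC-7 needs for its stability. It stood at 101, 98.3 and 89.1 CPM in RXRKO libraries and 117, 89.1 and 103 CPM in WT libraries, and the groups overlapped. Its log2 change was -0.10 (SE 0.103, 95% interval -0.33 to 0.12, edgeR adjusted p = 0.527). Its exons share 410 bases with the antisense gene Gm15200, which had 0 reads in all 6 libraries. Within each library, Clcn7 per kb was 1.99, 2.04 and 2.17 times Ostm1 per kb in RXRKO and 2.48, 3.3 and 2.98 times in WT. The log2 ratio averaged 1.05 ± 0.0626 in RXRKO and 1.54 ± 0.209 in WT (SD, n = 3 each), a difference of -0.49 without overlap (two-sided exact permutation p = 0.1, the smallest possible). The ratio's size depends on the exon length used, but its difference between genotypes does not.

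**Figure D2:**
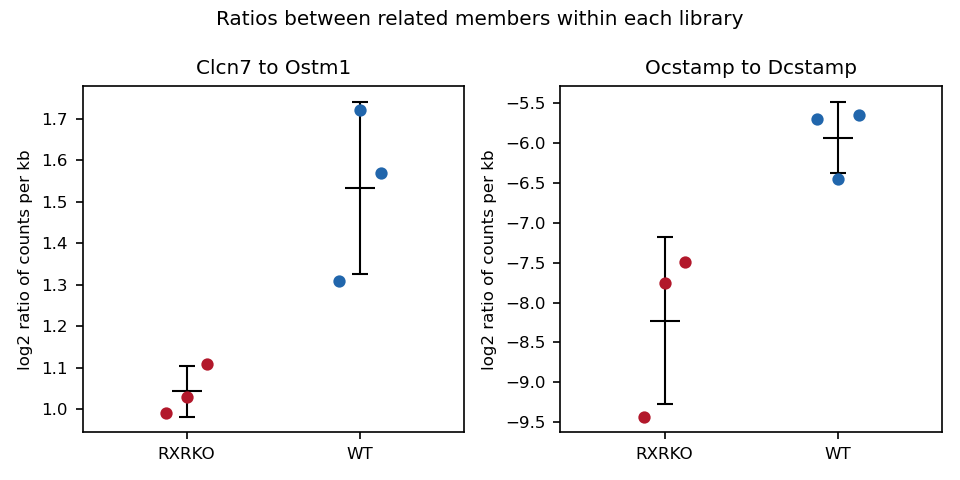
Log2 ratio of counts per kb of exon (y axis) of Clcn7 to Ostm1 and of Ocstamp to Dcstamp in each RXRKO and WT library (points), with mean and SD as bars. Both ratios are lower in every RXRKO library than in every WT library, by means of 0.49 and 2.29 on the log2 scale. For Ocstamp to Dcstamp the separation follows from the separate levels of the genes.

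Car2 (ENSMUSG00000027562, chromosome 3, 14886273 to 14900770) encodes carbonic anhydrase 2, which supplies protons for acid secretion. It had 0, 7 and 1 reads in RXRKO replicates 1, 2 and 3 and 7, 5 and 3 reads in WT replicates 1, 2 and 3. The levels overlapped, at 0.111 ± 0.147 CPM in RXRKO and 0.525 ± 0.287 CPM in WT (SD, n = 3 each, two-sided exact permutation p = 0.2 where 0.1 is the smallest possible). Red cell precursors also express Car2. Of 9 erythroid markers, 5 had reads, with a summed level of 0.318 to 0.815 CPM in RXRKO and 1.7 to 2.35 CPM in WT. The globin genes Hba-a1, Hbb-bs and Hbb-bt, which define red cells, had 0 reads in every library, and Hba-a2 had 1 read in RXRKO and 0 in WT. Alas2, of heme synthesis, had 7 reads in RXRKO and 0 in WT, and Car1, another carbonic anhydrase gene, had 2 in RXRKO and 0 in WT. These 3 genes were singled out after their values were seen. The highest of these markers was Epor, the erythropoietin receptor gene, which fell on 13 reads in RXRKO and 63 reads in WT (log2 fold change -3.08, edgeR adjusted p = 0.000399). The part of erythroid cells in the Car2 values was not tested.

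**Figure D3:**
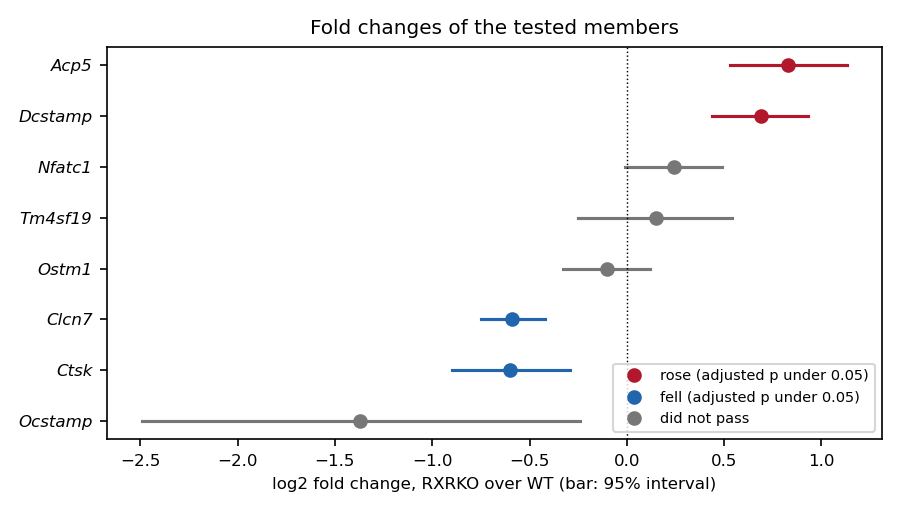
Log2 fold change, RXRKO over WT (x axis), of the 8 tested members with 95% intervals from the edgeR fit (bars), coloured by whether the adjusted p passed 0.05. Acp5 (0.83) and Dcstamp (0.69) lie to the right of 0, Clcn7 (-0.59) and Ctsk (-0.60) to the left, and the Ocstamp interval is the widest.

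Promoter windows are shown for Acp5, Clcn7 and Ctsk, which passed the test, and for Ostm1 as the partner of Clcn7. They come from RefSeq on GRCm38.p6 and run from 250 bases before to 50 after a start site. Windows of 6 of the 10 members were searched, 9 windows in all, those of Oscar and Tm4sf19 included. Nfatc1 was left out of this search. Dcstamp, which rose, and Ocstamp are named only. The M-box, bound by MITF and its relatives in osteoclasts and in lysosomal genes, was searched as TCANGTGA on both strands and is shown in capitals. It occurred in 2 of the 9 windows, the downstream start of Acp5 and the upstream start of Clcn7, and in 4.18% of all 32851 windows. Acp5 and Clcn7 have further windows without an M-box, and the window with the match is the one shown. Ctsk and Ostm1 have no further window. The sequences are given in the gene's own direction, and Acp5 is shown at chr9:22130549-22130848 on the minus strand, Clcn7 at chr17:25133141-25133440, Ctsk at chr3:95498960-95499259 and Ostm1 at chr10:42678666-42678965, each on the plus strand.
Acp5: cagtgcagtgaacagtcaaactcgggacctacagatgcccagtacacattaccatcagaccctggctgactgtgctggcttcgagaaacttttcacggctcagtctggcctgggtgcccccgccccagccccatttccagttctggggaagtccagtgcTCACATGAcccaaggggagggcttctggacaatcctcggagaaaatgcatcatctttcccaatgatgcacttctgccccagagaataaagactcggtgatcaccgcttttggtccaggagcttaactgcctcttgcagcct
Clcn7: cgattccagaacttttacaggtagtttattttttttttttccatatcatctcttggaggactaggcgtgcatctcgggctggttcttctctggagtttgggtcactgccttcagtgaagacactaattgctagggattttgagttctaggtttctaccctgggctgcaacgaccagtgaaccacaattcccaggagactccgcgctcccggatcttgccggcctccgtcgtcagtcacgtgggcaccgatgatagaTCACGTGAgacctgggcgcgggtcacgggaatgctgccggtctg
Ctsk: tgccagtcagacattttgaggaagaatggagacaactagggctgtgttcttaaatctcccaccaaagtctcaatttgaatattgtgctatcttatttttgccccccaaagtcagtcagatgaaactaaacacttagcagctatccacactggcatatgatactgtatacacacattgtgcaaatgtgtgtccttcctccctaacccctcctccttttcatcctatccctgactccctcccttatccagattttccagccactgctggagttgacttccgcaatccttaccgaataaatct
Ostm1: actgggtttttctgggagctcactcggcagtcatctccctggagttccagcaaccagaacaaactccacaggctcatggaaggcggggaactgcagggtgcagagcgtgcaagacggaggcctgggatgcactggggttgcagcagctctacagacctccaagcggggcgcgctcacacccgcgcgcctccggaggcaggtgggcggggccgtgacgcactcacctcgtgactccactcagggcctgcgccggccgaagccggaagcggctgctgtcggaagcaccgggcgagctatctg

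The Acp5 match (TCACATGA) began 91 bases before the start site and the Clcn7 match (TCACGTGA) at base 7 after it. The Clcn7 match overlaps an E-box core, CACGTG, and another core begins 15 bases before the start. Cores of this kind were in 7.15% of all windows. Of the members that hold an M-box, Acp5 rose and Clcn7 fell, and neither Ctsk, which fell, nor Ostm1 holds one in its window. The element AGGTCA, to which RXR and its partners bind, was found in none of these 4 windows but in the downstream window of Clcn7, against 16.3% of all windows. The AP-1 element TGANTCA was found in none of the 9 windows, against 7.81% of all. The NFAT core TGGAAA was found in 4 of the 9 windows, against 21.4% of all windows: those of Ctsk and Oscar, the downstream start of Acp5 and the upstream start of Clcn7. A match describes letters, not binding, and an absent one says nothing of the factor.

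Levels of different members were compared per kb of exon. In RXRKO the order was Clcn7, Dcstamp, Ostm1, Ctsk, Nfatc1, Acp5, Tm4sf19, Ocstamp, Car2 and Oscar, and in WT it was Clcn7, Ctsk, Ostm1, Dcstamp, Nfatc1, Tm4sf19, Acp5, Ocstamp, Car2 and Oscar. Clcn7 led in both genotypes, at 27.5 ± 0.646 CPM per kb in RXRKO and 41.2 ± 1.29 CPM per kb in WT (SD, n = 3 each). Dcstamp reached 22.4 ± 1.54 CPM per kb in RXRKO, apart from Ostm1 below it, against 14 ± 2.07 CPM per kb in WT, where its values overlapped those of Ostm1 and those of Ostm1 overlapped Ctsk. Acp5 reached 6.98 ± 0.511 CPM per kb in RXRKO, overlapping Nfatc1 and Tm4sf19, and 3.92 ± 0.389 CPM per kb in WT, below both. Dcstamp stood above 82.4% of tested genes in RXRKO and above 72.5% in WT. Ocstamp stood above 0.608% of tested genes in RXRKO and above 4.77% in WT. With the longest transcript in place of merged exons, the levels of Ostm1 and Nfatc1 were 1.64 and 1.56 times higher, and the order changed. In RXRKO Ctsk then stood below Nfatc1 and Acp5. In WT Ostm1 and Dcstamp then stood above Ctsk, Acp5 above Tm4sf19, and Car2 above Ocstamp.

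The wider osteoclast programme was read from 5 lists of other genes, 95 in all, of which 94 were in the table and 85 were tested. Of these 85, 16 rose and 12 fell, 32.9% in all, against 19.4% of all tested genes. The lists were chosen with earlier results of these data known, so these shares are a description only. Their median log2 fold change was 0.07. Mmp9, Itgb3, Atp6v0d2 and Csf1r also stand in the cell type marker lists.

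Of the genes for RANK, its partner receptors and their signalling, 14 were tested. Of these 14 tested genes 2 rose, 0 fell and 12 missed the threshold, with a median of 0.07 (log2). The share called was 14.3%, against 19.4% of all tested genes, of which 9.61% were lower in RXRKO. Tnfrsf11a, which encodes RANK, averaged 140 ± 5.83 CPM in RXRKO and 144 ± 2.8 CPM in WT (SD, n = 3 each), with a log2 fold change of -0.04 (edgeR adjusted p = 0.756). Csf1r, the CSF-1 receptor gene, rose (0.39, SE 0.0847, edgeR adjusted p = 0.00575). The adaptor gene Gab2 rose too (0.29), but its call was lost when either WT replicate 1 or 2 or any RXRKO library was left out. It was also lost with offsets for length and GC content, where the log2 change was 0.12 (adjusted p = 0.299). Fcer1g, the chain through which OSCAR signals, averaged 639 ± 77.6 CPM in RXRKO and 689 ± 36.8 CPM in WT (-0.11, adjusted p = 0.469, and 0.08 with offsets for length and GC content). Tyrobp, the other adaptor chain, had a log2 fold change of 0.06.

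Among 20 genes for transcription factors of osteoclasts, 2 passed as higher and 1 as lower, with 17 short of the threshold and a median of 0.03 (log2). That is 15% called, against 19.4% of all tested genes. Fos, the AP-1 subunit without which osteoclasts do not form, stood at 121, 127 and 113 CPM in RXRKO libraries, against 252, 234 and 248 CPM in WT libraries. It fell, with a log2 change of -1.02 (SE 0.0802, edgeR adjusted p = 3.31e-06). Fosl2, another AP-1 subunit gene, rose (0.51), and Mitf, whose protein binds M-boxes, rose with 157, 167 and 151 CPM in RXRKO libraries against 111, 109 and 123 CPM in WT libraries (0.47, SE 0.0824, edgeR adjusted p = 0.00157).

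Of 13 tested genes listed as inhibitors of osteoclast differentiation, 2 rose, 2 fell and 9 missed the threshold, with a median of 0.17 (log2). That is 30.8% called, against 19.4% of all tested genes. Rbpj, the DNA-binding factor of Notch signalling, rose (0.86, SE 0.0804), and so did Irf8, a transcription factor that restrains NFATc1 (0.63, SE 0.0778). Socs3, an inhibitor of cytokine signalling, fell (-1.35), with 1.34 ± 0.282 CPM in RXRKO and 3.47 ± 0.234 CPM in WT. Whether Socs3 acts as an inhibitor of osteoclast differentiation in these cells was not tested.

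Of 12 other fusion genes 2 rose, 3 fell and 7 missed the threshold, with a median of 0.04 (log2). That is 41.7% called, against 19.4% of all tested genes. Atp6v0d2, a proton pump subunit gene that mouse osteoclasts need for fusion like Dcstamp, went the other way from Dcstamp. It stood at 153, 157 and 114 CPM in RXRKO libraries, against 255, 199 and 233 CPM in WT libraries, and fell, with a log2 change of -0.70 (SE 0.123, edgeR adjusted p = 0.00168). Cd47, the ligand of SIRP alpha (-0.48), and Myo10, an unconventional myosin gene (-0.52), also fell. The tetraspanin gene Tspan13 rose (1.06), as did Sh3pxd2a, a podosome scaffold gene (0.48), whose call was lost with the length and GC offsets (0.16).

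Of 26 attachment and resorption genes 8 rose, 6 fell and 12 missed the threshold, with a median of 0.07 (log2). That is 53.8% called, against 19.4% of all tested genes. The alpha-v integrin gene Itgav fell (-1.14, SE 0.0821), and its osteoclast partner Itgb3 fell (-0.60), a call lost without RXRKO replicate 1. Talin 1 (Tln1), which links integrins to actin, rose (0.75). The gelatinase gene Mmp9 rose to 23.1 ± 1.92 CPM in RXRKO, against 7.95 ± 2.49 CPM in WT (1.54, SE 0.174), and the membrane collagenase gene Mmp14 fell to 9.12 ± 1.35 CPM in RXRKO, against 25.8 ± 5.83 CPM in WT (-1.52, SE 0.168). Loss of Clcn7, Ostm1, Tcirg1, Snx10 or Plekhm1 causes osteopetrosis in humans, and these genes differed among themselves in direction. Tcirg1, the osteoclast proton pump subunit gene (0.37, edgeR adjusted p = 0.00479), and Plekhm1, a lysosome trafficking gene (0.45, edgeR adjusted p = 0.00405), rose, and Snx10, an endosomal sorting gene, fell (-0.42, edgeR adjusted p = 0.00225). Slc4a2, the anion exchanger gene that works beside carbonic anhydrase, rose (0.32), a call lost without RXRKO replicate 1 or 3 or WT replicate 1 or 3, and with the length and GC offsets (0.18, adjusted p = 0.153).

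**Figure D4:**
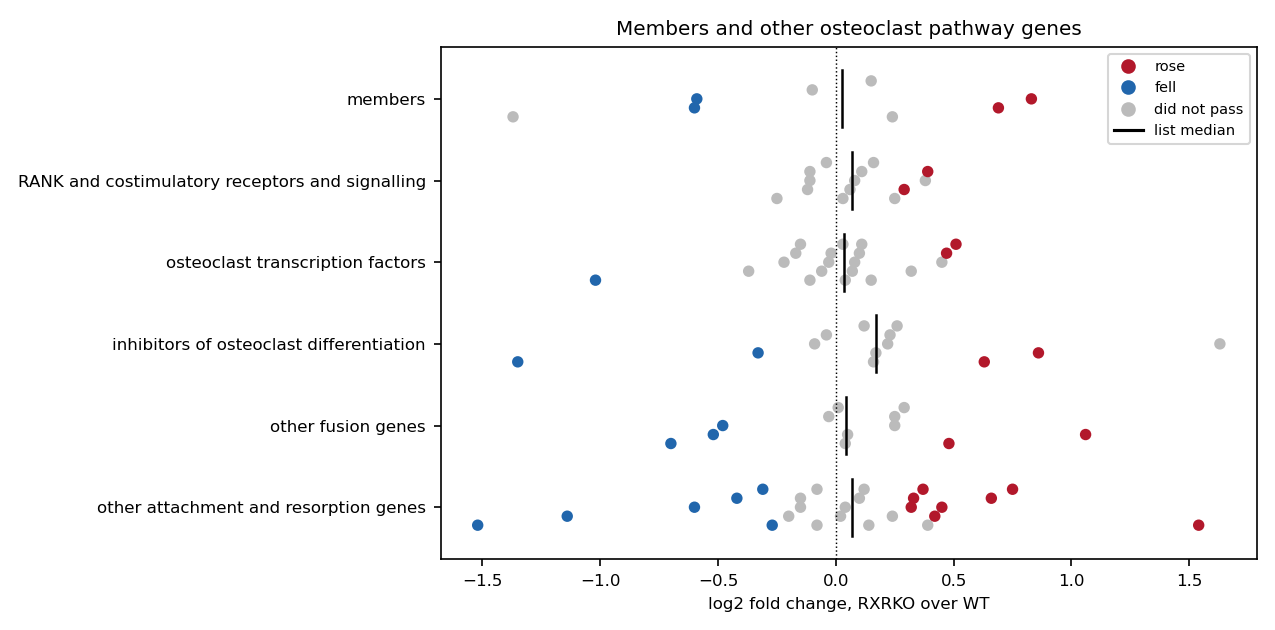
Log2 fold change, RXRKO over WT (x axis), of the tested members and of the tested genes of the 5 other osteoclast lists (rows), with each gene a point coloured by its call and the list median as a vertical line. Genes that rose and genes that fell stand in each row except the RANK row, where 2 rose and 0 fell. The RANK row holds 14 tested genes, and 9.61% of all tested genes fell.

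Markers of other cells were counted beside these results. The mature osteoclast list, which shares Ctsk and Acp5 with the members, summed to 181 to 227 CPM in RXRKO and 260 to 319 CPM in WT, with reads for 7 of 8 genes. The lower sum in RXRKO was mostly Atp6v0d2, at 142 CPM in RXRKO and 229 CPM in WT. Of the 7 genes with reads, Mmp9, Acp5 and Slc9b2 (0.67 on the log2 scale) rose, Atp6v0d2, Itgb3 and Ctsk fell, and Myo1d (-0.49) did not pass. Stromal and bone-forming markers summed to 8.89 to 14.1 CPM in RXRKO and 15.9 to 20.1 CPM in WT, with Runx2 the highest. Runx2 averaged 4.69 CPM in RXRKO and 9.83 CPM in WT and fell (log2 fold change -1.07, edgeR adjusted p = 0.00103). Col1a1 and Col1a2, the other tested genes of that list, did not pass. Neutrophil markers summed to 987 to 1100 CPM in RXRKO and 1080 to 1220 CPM in WT. Of these 9 markers, the granule genes Elane (-1.10 on the log2 scale), Mpo (-0.88) and Ngp (-0.27) fell and 6 did not pass. Slc9b2, Myo1d, Elane and Mpo were singled out after their values were seen. The megakaryocyte sum, 121 to 143 CPM in RXRKO and 48.4 to 53.2 CPM in WT, was mostly Vwf. Sums for mast cell and basophil, dendritic cell, B cell, and T and NK cell markers were between 0.109 and 2.85 CPM in RXRKO and between 0.196 and 5.81 CPM in WT. The part of such cells in the members' differences was not tested.

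Genes with a profile like that of a member were looked for by Pearson's r of log2 CPM over the 6 libraries, which share the genotype difference. The most alike was Syt11 for Dcstamp (r = 0.996), Unc5b for Acp5 (r = 0.999), S100a10 for Ctsk (r = 0.999) and Sort1 for Clcn7 (r = 0.999). For Acp5 422 protein-coding genes had an r above 0.95, for Clcn7 366, for Ctsk 262 and for Dcstamp 140, so such a value does not single out a gene. Among members whose groups overlapped, 106 genes did for Nfatc1, with Avl9 first (r = 0.998), 35 for Ostm1, with Nlrp10 first (r = 0.995), and 5 for Tm4sf19, with Ddhd1 first (r = 0.990). For Ocstamp, with few reads, 18 did, with Tmc3 first (r = 0.978).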

How the data were processed

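Counts per Ensembl gene were deposited by the authors as raw whole numbers for 3 RXRKO and 3 WT libraries and were used for all main tests. The authors also deposited log2 values, in which each library's counts are multiplied by its own constant first, used in 1 alternative. Libraries were made from 100 ng of RNA (NEBNext Ultra II, single-end), per the labels' protocols. Tools listed in the submitters' processing notes are TopHat2 2.0.7 and DESeq, with the build mm10 (GRCm38). Counting program, annotation and strand setting were not given in the sources used here, so reads of overlapping or near-identical genes may be misplaced. Symbols, positions and lengths came from GENCODE M21 (45106 of 45193 genes matched).

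The test was edgeR 4.0.16 (R 4.3.3), robust quasi-likelihood with TMM factors and genotype alone, on 12011 genes kept by filterByExpr (minimum count 10, minimum total 15), with Benjamini-Hochberg adjustment. SE was taken from the size of the log2 fold change over the root of F, and 95% intervals use the fit's degrees of freedom. Alternatives used DESeq2 1.42.0 and limma 3.58.1 among others. Floors cover counting error only, while the 95% intervals also take in the spread between libraries. Members, lists and tests were chosen with earlier results of these data known. From each list the up to 2 highest-ranking genes by adjusted p in each direction are named, with genes whose role stands beside a member. Some items that fall under this rule are not reported here.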

Additional observations from a re-analysis of the deposited data

How the results depend on the processing

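Each of the 8 tested members kept the sign of its fold change in every alternative that gave a value. The alternatives were RLE and upper-quartile factors, no filter, a CPM filter, DESeq2, voom, limma applied to the deposited log2 values (pseudocount 1), the replicate block, counts thinned to the smallest library, length and GC offsets (added after seeing the data), and leaving out each library in turn. The members that rose numbered 2 in each, and those that fell numbered 1 to 2 with a library left out, the lower count without WT replicate 1. Of the other osteoclast genes, 13 to 17 rose and 8 to 13 fell with a library left out, the lowest counts without RXRKO replicate 1, against 16 and 12. Length and GC offsets reversed 2 uncalled genes, Rxra (-0.09) and Fcer1g (0.08). Same-numbered samples did not deviate together (correlations of 0.091, -0.404 and -0.343, and 0 of 6 libraries correlated best with their own number), so the samples were not treated as paired. Whether equal numbers share an animal or batch is not given. The replicate block gave 1375 changed genes against 2327, and 14 and 9 other osteoclast genes that rose and fell, with the same members called. The calls of Gab2 and Slc4a2 were lost under it (adjusted p = 0.105 and 0.097). The total was 1286 without WT replicate 1 and 1383 without RXRKO replicate 1. Thinning left an Ocstamp count of 0, so that ratio had no value. Ocstamp, Car2 and Oscar are limited by depth. With no filter, Car2 had a log2 fold change of -1.97 (edgeR adjusted p = 0.274).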
